A study of Homo sapiens with 2 samples.

Results

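Domain V of 28S rRNA, the stretch of the large subunit RNA that holds the peptidyl transferase centre, was described here as positions 3901 to 4530 of 28S in a CLIP-seq coverage table, numbered from 1 at the 5′ end as in that table. The range was fixed by position and not by coverage, and it holds 630 of the 6940 positions measured on 18S and 28S rRNA, which is 12.4% of the 5070 positions of 28S. The names of the domain and of its helices are approximate. RNA was compared between 1 pull-down library labelled ZAK-alpha-RBR and 1 mock pull-down library, both from U2OS, a human osteosarcoma cell line grown in culture. The labels do not spell out RBR, what the mock pull-down contained, or any treatment of the cells, and they name no other difference between the libraries. ZAKα is the long isoform of the kinase MAP3K20, and the series asks how it recognises stalled ribosomes. With 1 library per group there was no spread between replicates, no test between the groups was possible, and no p-value is given.

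In every ribosome this domain forms the active site in which amino acids are joined. The CCA end of the tRNA that carries the growing chain pairs with a hairpin called the P loop, and that of the incoming aminoacyl tRNA pairs with the A loop. Around them, single strands of domain V form a ring whose catalytic adenine lies at the site of peptide bond formation, and the product leaves through an exit tunnel that opens beside the same ring. The L1 stalk, a mobile arm that escorts spent tRNA away, also grows out of domain V, and in mammals the domain carries the GC-rich expansion segments ES30 and ES31. Anisomycin, a classical trigger of the ribotoxic stress response in which ZAKα acts, binds in the crevice next to the catalytic adenine.

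The RNA sequences of the functional strands are shown first, since all later values refer to them. They are read from the bases listed in the deposited table, 5′ to 3′, and capitals mark the residues named. Each name was placed by a short exact motif that occurs once in the range, and the bases found matched those known for these residues.
Tunnel entrance strand, 3901 to 3933, adenine at 3908 in capitals: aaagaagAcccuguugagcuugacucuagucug
P loop, 4182 to 4211, guanines at 4196 and 4197 in capitals: ggggaguuugacugGGgcgguacaccuguc
Catalytic strand and start of helix 89, 4370 to 4417, catalytic adenine at 4397 and the next cytosine in capitals: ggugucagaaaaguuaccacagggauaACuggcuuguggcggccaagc
Second ring strand, 4433 to 4460, guanine at 4451 and uracil at 4452 in capitals: gcuuuuugauccuucgauGUcggcucuu
A loop, 4484 to 4513, uracil at 4498 and guanine at 4499 in capitals: accaagcguuggauUGuucacccacuaaua

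The stretches where the libraries differed most are shown next, with the called region in capitals and 10 flanking positions on each side in lower case. A region was called where both profiles, averaged over 15 positions, differed at least 2-fold from the median ratio of 28S over at least 10 positions in a row.
Lower with ZAK-alpha-RBR, 3946 to 3960: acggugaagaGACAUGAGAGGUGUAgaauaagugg
Higher with ZAK-alpha-RBR, 3973 to 3982: auaagugggaGGCCCCCGGCgcccccccgg
Lower with ZAK-alpha-RBR, 4303 to 4316: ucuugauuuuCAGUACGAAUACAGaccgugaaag
Lower with ZAK-alpha-RBR, 4367 to 4384: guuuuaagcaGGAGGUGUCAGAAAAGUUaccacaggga
Lower with ZAK-alpha-RBR, 4466 to 4484: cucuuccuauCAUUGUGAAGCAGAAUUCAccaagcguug

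Coverage is given in ppm, that is per 1000000 of the summed coverage of each library over both rRNAs. Because each read adds to all positions that it spans, adjacent positions are not independent of each other. The ZAK-alpha-RBR library was the shallower one, with a median of 901 reads per position in domain V against 11523 in the mock, so counting error comes mostly from it. Read depth ranged between 80 and 3524 reads with ZAK-alpha-RBR and between 421 and 40496 in the mock, so every position of the domain was covered in both. Exact 95% intervals in parentheses cover the counting of reads only, and copies of the same molecule would make them too narrow.

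Domain V as a whole took a similar share of both libraries, slightly smaller with ZAK-alpha-RBR. Its share was 10.2% in the ZAK-alpha-RBR library (exact binomial interval 9.72 to 10.6) and 10.9% in the mock library (10.7 to 11.1). Of the 28S coverage alone, it held 15.8% with ZAK-alpha-RBR (14.8 to 17.0) and 16.2% in the mock (15.9 to 16.6), with overlapping intervals. The mean level was 161 ppm with ZAK-alpha-RBR and 173 ppm in the mock. The median log2 ratio of ZAK-alpha-RBR over mock, with a pseudocount of 1 ppm added to both, was -0.03 in domain V, 0.18 over the rest of 28S and -0.02 on 18S. With scaling by 28S coverage the value of domain V was 0.04, on the other side of 0. With library totals, the median was 0.22 over the 630 positions just upstream and -0.25 over the 540 positions from the domain to the 3′ end of 28S. Whether these medians differ beyond the spread of separately made libraries was not tested.

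**Figure D1:**
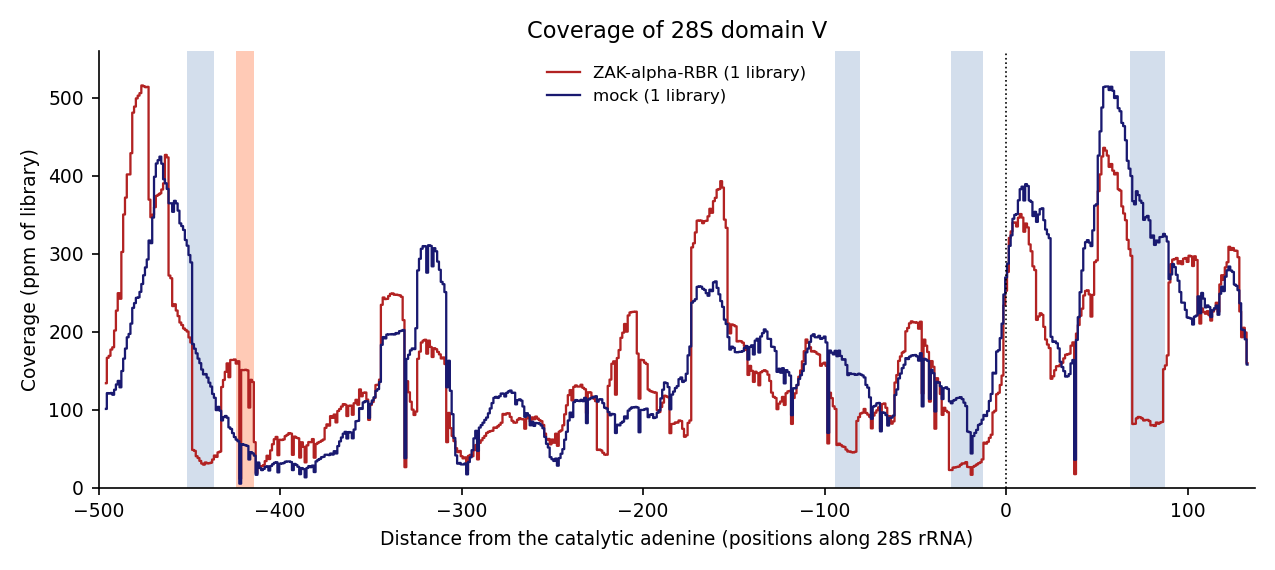
Coverage of domain V in ppm of each library (vertical axis) by distance from the catalytic adenine along 28S (horizontal axis, dotted line at the adenine), with the ZAK-alpha-RBR library in red and the mock in dark blue, 1 library each. Pale orange marks the higher and pale blue the 4 lower called regions; the ZAK-alpha-RBR library reached 516 ppm near the 5′ end of the domain and the mock 514 ppm just 3′ of the second ring strand.

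Inside that total the shape of the profiles differed. Of the 630 positions, 502 lay within 2-fold of equal coverage. The ZAK-alpha-RBR library was 2-fold or more above the mock at 51 positions (8.10%) and 2-fold or more below it at 77 (12.2%). Over all 6940 positions of both rRNAs, 9.31% were at least 2-fold higher and 11.9% at least 2-fold lower, so the shares in domain V lay near this background. With scaling by the median of ratios the counts in the domain were 29 higher and 79 lower. No position of the domain was 4-fold higher, and 20 of the 630 were at least 4-fold lower. Over all 6940 positions, 52 were at least 4-fold higher and 177 at least 4-fold lower. Position by position, log2 coverage in one library followed that in the other with r = 0.71 over the 630 positions of domain V and r = 0.82 over the 4440 of the rest of 28S, a description only, since adjacent positions share reads.

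The highest coverage of the ZAK-alpha-RBR library in domain V lay at its 5′ end, on the strand at the exit tunnel entrance. The uracil at position 3921 had 3524 reads (exact Poisson interval 3409 to 3642) with ZAK-alpha-RBR against 20566 (20286 to 20849) in the mock, a fold of 1.97 (1.90 to 2.05). Positions 3922 and 3924 followed with 3517 and 3512 reads with ZAK-alpha-RBR. The mock peaked elsewhere, at the border of the second ring strand: position 4453 had 2910 reads with ZAK-alpha-RBR and 40496 in the mock, a fold of 0.828 (0.797 to 0.860). Positions 4452 and 4455 were the next highest in the mock, with 40495 and 40467 reads. The tallest peak of each library was thus the lower one in the other, by less than 2-fold at both places.

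Domain V was divided into 9 segments along its secondary structure, of which 3 were higher on average with ZAK-alpha-RBR and 6 lower. None reached a 2-fold difference. The segment intervals were computed as if only the mean number of reads covered the segment.

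The tunnel entrance segment, 3901 to 3955, holds the first ring strand and the first strands of helices 74 and 75. Its mean was 288 ppm with ZAK-alpha-RBR and 260 ppm in the mock, a fold of 1.11 (1.06 to 1.16). The average hides opposite differences: the fold was 2.12 at position 3911 and 0.204 at position 3955. The adenine at 3908, which lines the tunnel entrance next to the nascent peptide, had 1705 reads with ZAK-alpha-RBR (1625 to 1788) and 10790 in the mock (10587 to 10996), 1.82-fold (1.73 to 1.92). Just downstream of it, positions 3910 to 3920 formed a run past the 2-fold limit at every position, with a mean of 430 ppm with ZAK-alpha-RBR against 209 ppm in the mock.

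At the base of the L1 stalk with ES30, 3956 to 4060, the mean was 96.1 ppm with ZAK-alpha-RBR and 70.1 ppm in the mock, the largest excess of the 9 segments at 1.37-fold (1.26 to 1.49). The segment was thinly covered in both libraries, with a mean depth of 657 reads with ZAK-alpha-RBR and 5518 in the mock. With 105 of the 630 positions, it held 29 of the 51 positions past 2-fold on the high side, in 5 of the 7 runs of such positions. The average hides opposite differences here too: 9 positions at its 5′ end were at least 2-fold lower, down to a fold of 0.222 at 3957. The highest of 21 consecutive tiles of 30 positions also lay here: tile 3991 to 4020, at 56.4 ppm with ZAK-alpha-RBR against 28.6 ppm in the mock, was 1.97-fold higher (1.77 to 2.20). The tile before it, 3961 to 3990, was 1.69-fold higher (1.56 to 1.83), and tile 3901 to 3930 at the tunnel entrance came next with 1.59-fold (1.53 to 1.66). Helix 79 with ES31, 4061 to 4170, was slightly lower, with 103 ppm with ZAK-alpha-RBR and 124 ppm in the mock, a fold of 0.827 (0.765 to 0.892). G and C content was 75.2% in the segment with ES30 and 77.3% in the segment with ES31. The ratio of means was above 1 in the first and below 1 in the second.

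The segment with the P loop, 4171 to 4235, averaged 164 ppm with ZAK-alpha-RBR against 135 ppm in the mock, 1.22-fold (1.15 to 1.30). The guanine at position 4196, known to pair with the tRNA in the P site, had 1121 reads with ZAK-alpha-RBR (1056 to 1189) and 7860 in the mock (7687 to 8036), a fold of 1.64 (1.54 to 1.75). The next guanine, at 4197, had 1118 reads with ZAK-alpha-RBR and 7856 in the mock, also 1.64-fold. The strand that leads into the loop was higher still: positions 4183 to 4193 averaged 206 ppm with ZAK-alpha-RBR against 92.7 ppm in the mock, and position 4186 was 2.34-fold higher. On both sides of this peak short stretches were lower, 4172 to 4177 at 45.9 ppm with ZAK-alpha-RBR against 108 ppm in the mock, and 4220 to 4223 at 75.6 ppm with ZAK-alpha-RBR against 159 ppm in the mock.

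Helices 82 to 88, 4236 to 4369, which reach towards the central protuberance, averaged 144 ppm with ZAK-alpha-RBR against 157 ppm in the mock, a fold of 0.919 (0.860 to 0.980). Of the 9 segments, this one was closest to equal coverage with library totals. Within it, folds ranged between 0.206 at position 4366 and 1.66 at position 4241.

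The catalytic strand, 4370 to 4398, was the lowest segment, with 76.4 ppm with ZAK-alpha-RBR and 127 ppm in the mock, a fold of 0.601 (0.549 to 0.656). All 15 of its positions at least 2-fold lower lay in its 5′ part, up to 4384. A weaker deficit ran on to 4395, at 0.684-fold, and position 4396 was at 0.944-fold. The catalytic adenine at 4397 had 1726 reads (1646 to 1809) with ZAK-alpha-RBR and 21228 (20943 to 21516) in the mock, a fold of 0.937 (0.891 to 0.984). The adjacent cytosine at 4398 had 1891 reads with ZAK-alpha-RBR (1807 to 1978) and 22613 in the mock (22319 to 22910), a fold of 0.963 (0.919 to 1.01), which lay just above 1 with scaling by 28S coverage. With library totals, the libraries lay within 10% of each other at both residues, far inside the 2-fold limit. With scaling by the median of ratios, the log2 ratio was -0.20 at the adenine and -0.16 at the cytosine.

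Beyond the catalytic residues the difference stayed small. Helix 89, 4399 to 4440, averaged 232 ppm with ZAK-alpha-RBR against 275 ppm in the mock, a fold of 0.844 (0.802 to 0.889). In the second ring strand, 4441 to 4452, the means were 323 ppm with ZAK-alpha-RBR and 392 ppm in the mock, a fold of 0.823 (0.788 to 0.859), and all 12 positions lay between 0.708 and 0.893. Its guanine at 4451 had 2978 reads with ZAK-alpha-RBR (2872 to 3087) and 40441 in the mock (40048 to 40837), 0.848-fold (0.817 to 0.881), and its uracil at 4452 was at 0.840-fold (0.809 to 0.872). This was the most even of the 9 segments, but also the shortest, and adjacent positions share reads.

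Helices 90 to 92 with the A loop, 4453 to 4530, averaged 239 ppm with ZAK-alpha-RBR against 308 ppm in the mock, a fold of 0.776 (0.738 to 0.816). The A loop itself lay on the other side of 1. Its uracil at 4498, a known site of methylation, had 2033 reads with ZAK-alpha-RBR (1946 to 2123) and 17145 in the mock (16889 to 17404), a fold of 1.37 (1.30 to 1.43), and its guanine at 4499, known to pair with the tRNA in the A site, was also at 1.37-fold (1.31 to 1.43). Across the 9 landmark residues of the domain the folds thus ran between 0.840 and 1.82: those of the tunnel entrance, the P loop and the A loop were above 1 with intervals above 1, and those of the catalytic site and the second ring strand were below 1, with an interval that reached 1 for the cytosine at 4398.

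**Figure D2:**
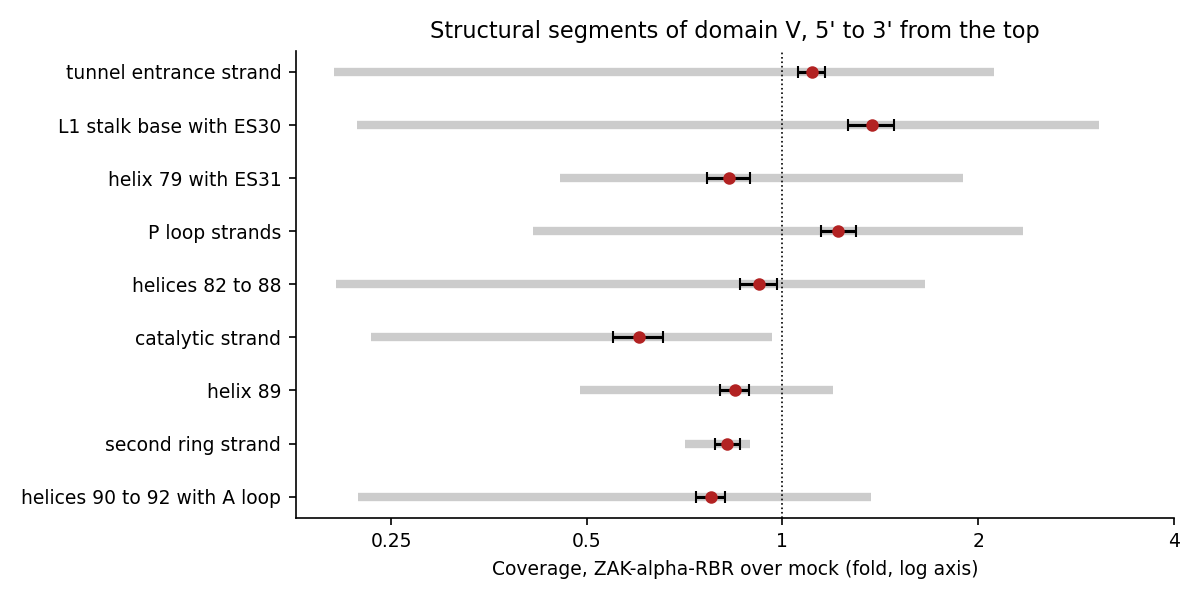
Fold of coverage, ZAK-alpha-RBR over mock, on a log axis, for the 9 structural segments of domain V from the 5′ end at the top. Points are folds of segment means with exact 95% counting intervals, and grey bars span the single positions; the catalytic strand is lowest at 0.601 and the L1 stalk base with ES30 highest at 1.37.

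By the region rule, domain V held 1 higher region of 10 positions and 4 lower regions with 66 positions in all. Lower regions took 10.5% of the domain, against 9.73% of all positions on both rRNAs, and the higher region took 1.59% of it, against 4.73%. With ZAK-alpha-RBR, 0.424% of all coverage lay in these 4 lower regions, against 1.31% in the mock. Among the 23 lower regions of 28S, ordered by how far the averaged ratio departed from 0, those of domain V ranked 5, 8, 9 and 16, and the higher region ranked 7 among 9. The higher region was not called with a pseudocount of 10 ppm, a window of 31 positions or a 3-fold limit. Under these settings 4, 2 and 1 lower regions were called. Under the region rule as stated above, no region of either kind in domain V reached 20 positions.

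The deepest of them, 4466 to 4484, lies in helices 90 to 92, upstream of the A loop, in a stretch where the mock was deep. Its mean was 99.5 ppm with ZAK-alpha-RBR and 345 ppm in the mock, 3.47-fold lower (3.21 to 3.75). At position 4474, where the averaged log2 ratio reached -2.01, there were 594 reads with ZAK-alpha-RBR (547 to 644) and 27287 in the mock (26964 to 27613), 3.99-fold lower (3.68 to 4.33). The 10 positions upstream of the region had 365 ppm with ZAK-alpha-RBR against 468 ppm in the mock, and the 10 positions downstream had 262 ppm with ZAK-alpha-RBR against 277 ppm in the mock, so both flanks differed less than the region itself.

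The region at 3946 to 3960 spans the border between the tunnel entrance segment and the L1 stalk base. It averaged 67.5 ppm with ZAK-alpha-RBR against 182 ppm in the mock, 2.69-fold lower (2.45 to 2.96). At its low point, position 3956, there were 222 reads with ZAK-alpha-RBR (194 to 253) against 11478 in the mock (11269 to 11690), 4.49-fold lower (3.93 to 5.15). The lowest single ratio of the domain among positions with at least 100 reads in both libraries was at 3955, with 203 reads with ZAK-alpha-RBR against 11445 in the mock, 4.89-fold lower (4.26 to 5.65). Position 3954 followed, with 213 reads with ZAK-alpha-RBR against 11935 in the mock.

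Only 12 positions downstream of that region lay the higher one, 3973 to 3982, at the base of ES30. Its mean was 131 ppm with ZAK-alpha-RBR and 47.2 ppm in the mock, 2.78-fold higher (2.58 to 2.99). Its last bases were the highest ratios of the domain: position 3982 had 927 reads with ZAK-alpha-RBR (868 to 989) against 3473 in the mock (3358 to 3590), 3.07-fold higher (2.86 to 3.31), and positions 3981 and 3980 were 3.03-fold and 2.83-fold higher. All of its bases are G or C. Position 3975, the first of 5 consecutive C, had only 80 reads with ZAK-alpha-RBR and 421 in the mock, beside 1109 with ZAK-alpha-RBR and 4699 in the mock at the position before it. Such dips at the first base of a run of equal bases appeared in both libraries at all 5 runs of at least 5 equal bases in the domain, and they enter every mean above.

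The region at 4367 to 4384 lies inside the catalytic strand and just 5′ of it, and 12 positions separate it from the catalytic adenine. It averaged 28.3 ppm with ZAK-alpha-RBR against 91.9 ppm in the mock, 3.25-fold lower (2.81 to 3.76), the lowest level of the 4 lower regions in both libraries. Position 4366 at its edge had 156 reads with ZAK-alpha-RBR (132 to 182) and 8725 in the mock (8543 to 8910), 4.86-fold lower (4.14 to 5.72). The region at 4303 to 4316, in helices 82 to 88, had the smallest deficit, with 59.2 ppm with ZAK-alpha-RBR against 157 ppm in the mock, 2.65-fold lower (2.40 to 2.93), an interval that overlaps that of 3946 to 3960. It lies in the lowest of the 21 tiles, 4291 to 4320, which was 1.66-fold lower at 98.0 ppm with ZAK-alpha-RBR against 163 ppm in the mock. Tiles 4471 to 4500 and 3931 to 3960, which hold parts of the other lower regions, came next, at 1.56-fold and 1.55-fold lower.

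**Figure D3:**
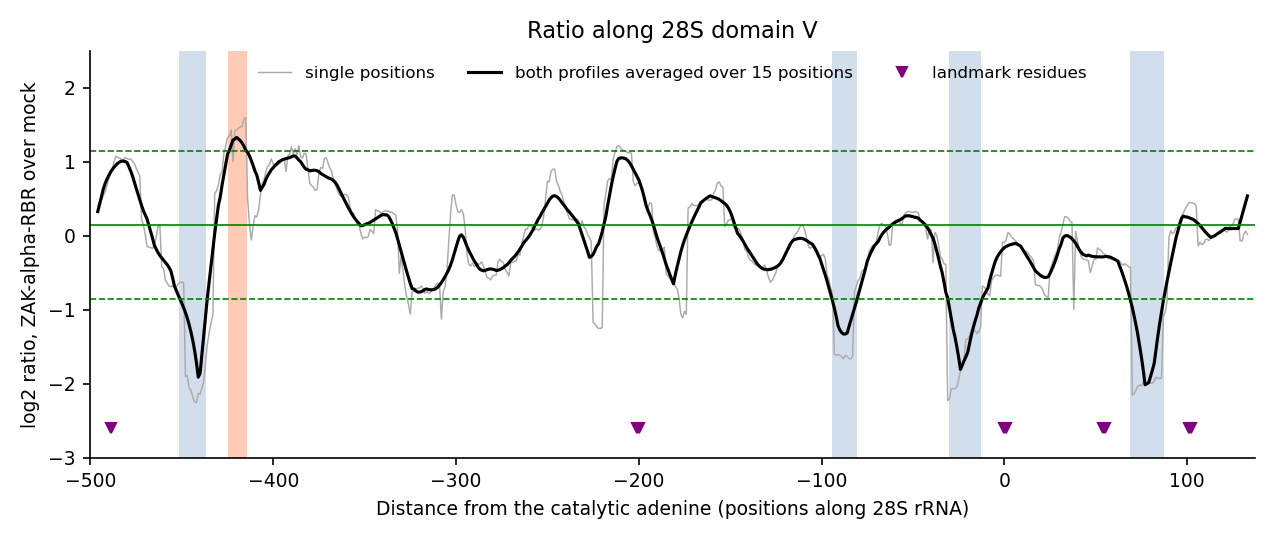
The log2 ratio of ZAK-alpha-RBR over mock by distance from the catalytic adenine, for single positions (grey) and with both profiles averaged over 15 positions (black), with the median of 28S (solid green line), the 2-fold limits around it (dashed) and the landmark residues (triangles). The averaged ratio passed the lower limit in the 4 pale blue regions, down to -2.01, and the upper limit in the pale orange one, up to 1.33, and no landmark residue lies inside a called region.

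The lower regions had edges at or near C-A steps, the term used here for a C with an A directly 3′ of it. Earlier results of these data had already singled out this step, so it was not an independent choice here. All 4 lower regions began within 3 positions of a C-A step. How large a share of all positions lies this close to such a step was not computed. Between positions 4466 and 4467 coverage was 297 ppm before and 81.8 ppm after the step with ZAK-alpha-RBR, against 400 and 367 ppm in the mock. Between 4365 and 4366 it was 96.8 and 22.8 ppm with ZAK-alpha-RBR, against 127 and 111 ppm in the mock. Between 3948 and 3949 it was 186 and 48.6 ppm with ZAK-alpha-RBR, against 289 and 184 ppm in the mock, and between 4303 and 4304 it was 101 and 54.9 ppm with ZAK-alpha-RBR, against 176 and 169 ppm in the mock. At their 3′ edges, the step between 4483 and 4484 had 84.4 and 152 ppm with ZAK-alpha-RBR, against 322 and 325 ppm in the mock, and the step between 4314 and 4315 had 46.2 and 85.7 ppm with ZAK-alpha-RBR, against 145 and 145 ppm in the mock. Within 3 positions of a 3′ edge there were 2 more C-A steps, and none lay that close to the 3′ edge of 3946 to 3960. Between 4387 and 4388 coverage was 59.0 and 64.1 ppm with ZAK-alpha-RBR, against 98.3 and 111 ppm in the mock, a smaller relative change with ZAK-alpha-RBR. Between 4486 and 4487 it was 170 and 263 ppm with ZAK-alpha-RBR, against 316 and 267 ppm in the mock, changes in opposite directions. The regions were called from the ratio of the libraries, so a difference in level change at their edges follows in large part from how they were chosen and supports nothing by itself.

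Runs of single positions past 2-fold, also chosen by the ratio, were set against C-A steps as well. Of the 8 runs past the 2-fold limit on the low side in domain V, 7 had an edge exactly at a C-A step, against 0 of the 7 runs on the high side. The short stretch 4172 to 4177 near the P loop had such a step at each end. On the rest of 28S, 32 of 42 lower runs and 7 of 59 higher runs had an edge at a C-A step, so the pattern was not particular to domain V. Across the 29 C-A steps of the domain, the change of level from one side to the other had a median absolute size of 0.64 on the log2 scale with ZAK-alpha-RBR and 0.18 in the mock, and it was the larger one with ZAK-alpha-RBR at 20 of the 29. The same values were not computed for other pairs of bases, so whether they are particular to C-A steps was not tested. These steps make up 4.61% of neighbouring pairs of bases in the domain. Of the summed falls in coverage, 25.3% lay at these steps with ZAK-alpha-RBR and 17.2% in the mock, and of the summed rises 17.0% with ZAK-alpha-RBR and 8.23% in the mock. On the rest of 28S, C-A steps make up 3.15% of pairs. They held 16.2% of falls there with ZAK-alpha-RBR and 9.66% in the mock, and 18.6% and 12.3% of rises. The larger share with ZAK-alpha-RBR was thus not particular to domain V. Net 3′ ends of reads appear as falls, and net 5′ starts as rises.

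The largest single fall of the ZAK-alpha-RBR library in domain V was the C-A step after 4466, with 1473 reads lost, and the largest rise was the C-A step after 4223, with 1516 reads gained. In ppm the fall was 215 with ZAK-alpha-RBR and 32.2 in the mock, and the rise was 222 with ZAK-alpha-RBR and 56.2 in the mock. Among the 5 largest falls of the ZAK-alpha-RBR library 2 were at C-A steps, after 4466 and after 3935, and the other 3 were dips into runs of equal bases, after 4065, 4434 and 3974. Its 5 largest rises lay at the C-A steps after 4223 and 4052 and at the return from dips after 4435, 3975 and 4066. In the mock, the largest fall and the largest rise were both dips of this kind, after 4065 and after 4435, and only the fall after 4421 and the rise after 4072 were at C-A steps. The other large steps of the mock were the falls after 4434, 4088 and 4298 and the rises after 4066, 4299 and 4447.

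Base composition moved with the ratio as well. The 4 lower regions had 42.4% G and C, against 60.2% in domain V as a whole. They contained 7 C-A steps, which is 10.6 per 100 positions, beside 4.61% of neighbouring pairs in domain V. Several of the 7 are the edge steps given above, so this density follows in part from calling the regions by the ratio. Across the 21 tiles, the log2 ratio correlated with G and C content at r = 0.48 (Spearman 0.52) and with the number of C-A steps at r = -0.54 (Spearman -0.50). Across the 148 tiles of the rest of 28S the values were r = 0.59 (0.62) with G and C content and r = -0.47 (-0.49) with C-A steps. G and C content and C-A steps also correlated with each other in domain V (Spearman -0.60), so they cannot be told apart here, and neighbouring tiles share reads. The 6 tiles of domain V without a C-A step had a median log2 ratio of 0.55, and the 10 tiles with 2 such steps had -0.25. Domain V had less G and C (60.2%) than the rest of 28S (70.6%), beside its lower median ratio. The 630 positions just upstream had 71.1% G and C, with a median log2 ratio of 0.22. The order did not hold for all parts: 18S had 56.0% with a median of -0.02, and the 540 positions downstream had 64.6% with -0.25. The part of base composition and of C-A steps in these differences was not tested.

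**Figure D4:**
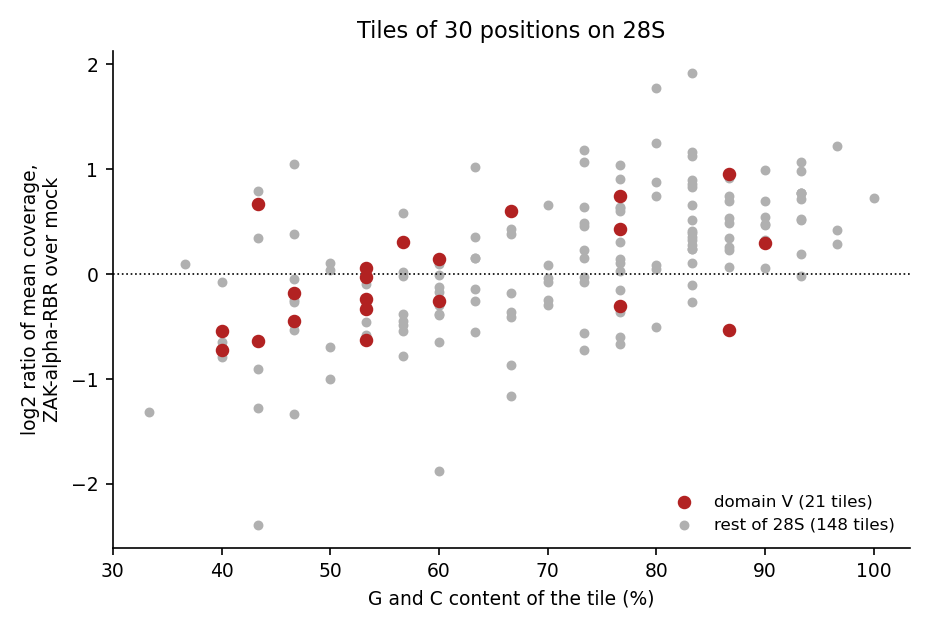
The log2 ratio of mean coverage, ZAK-alpha-RBR over mock, against G and C content for tiles of 30 positions on 28S, with the 21 tiles of domain V in red and the 148 others in grey. Tiles of domain V ran between -0.73 and 0.96, inside the range of the others, -2.39 to 1.91, and those below 60% G and C lay mostly below 0.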

How the data were processed

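RNA recovered from 2 pull-downs of U2OS cells was joined in fragments to adaptors by an altered tRNA ligase of Arabidopsis and read on an Ion Proton, per the labels' protocols. Bowtie2 2.3.4.1 and cutadapt 2.0 are the tools listed in the submitters' processing notes. What reference was aligned to, and how strand, multi-mapping and duplicates were handled, is not given in the sources used here. Values as deposited are a coverage signal, which the authors had normalized, and both columns have the same total. Dividing the ZAK-alpha-RBR column by 11.5 left whole numbers at 100% of positions (tolerance 0.001), and these unscaled depths sum to 6835941, against 78749474 in the mock.

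Values were then expressed in ppm of each library. Ratios past a limit and log2 ratios carry a pseudocount of 1 ppm, while folds carry none. Shares use the smallest possible number of reads (17111 with ZAK-alpha-RBR, 98906 in the mock; on 28S alone the deepest position) for their binomial intervals. Fold intervals are exact binomial intervals of 2 depths. Segments, tiles, landmarks, all called regions, and the extreme positions (3 of each kind) and steps (5 of each kind) are named. The range, lists and rules were chosen with earlier results of these data known. Alternatives were scaling by the median of ratios or by 28S, a pseudocount of 10 ppm, a coverage filter, other folds, windows, baselines and run lengths, shifted tiles and filled dips. The region rule was tested on simulated data with planted increases only, in stretches longer than the regions called in domain V. Planted decreases were not tried. Python 3.11.15, numpy 2.4.6, pandas 2.3.3, scipy 1.17.1 and matplotlib 3.10.9 were used. Because rRNA genes are multi-copy, positions refer to the rRNA only.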

Additional observations from a re-analysis of the deposited data

How the results depend on the processing

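No paired analysis was possible because each group has 1 library, and for the same reason no replicate could be left out. The share of coverage on domain V was 15.8% with ZAK-alpha-RBR and 16.2% in the mock when 28S alone was the total. The median log2 ratio of the domain, -0.03, was -0.13 with scaling by the median of ratios and 0.04 with scaling by 28S coverage, and the scalings moved the median of all positions to -0.00005 and 0.16, beside 0.10 with library totals. The 51 positions at least 2-fold higher were 29 with scaling by the median of ratios and 29 with a pseudocount of 10 ppm, 1 at a 3-fold limit and 112 at a 1.5-fold limit. The 77 positions lower were 50 at 3-fold and 139 at 1.5-fold. Of the called regions, 4 higher and 7 lower were found at a 1.5-fold limit, 0 higher and 1 lower at 3-fold, 0 higher and 2 lower with a window of 31 positions, and 0 of either kind at a minimum of 20 positions. A pseudocount of 10 ppm left 0 higher regions, and library totals as the baseline gave 2. The lower region at 4466 to 4484 was found under 9 of 10 settings, the one at 4367 to 4384 under 8, those at 3946 to 3960 and 4303 to 4316 under 7 each, and the higher region at 3973 to 3982 under 6. The 1.5-fold limit added higher regions at 3906 to 3920, 3993 to 4030 and 4183 to 4197. Shifted tiles moved the lowest tile to 4366 to 4395, at a log2 ratio of -1.09. With dips filled, 32.0% of falls lay at C-A steps with ZAK-alpha-RBR and 20.7% in the mock, and 22.5% of rises with ZAK-alpha-RBR and 12.2% in the mock. The cause of these shifts was not tested beyond what the settings change by construction. Under the 3 settings tried for segments and landmarks, the log2 ratio changed sign at 1 of them, the cytosine at 4398, which was at -0.05 and was at 0.01 with scaling by 28S coverage. Scaling by the median of ratios moved all 9 landmarks and 6 of the 9 segments by more than their counting intervals reach. Scaling by 28S coverage did so for 2 landmarks and 1 segment. The filled dips for regions and positions were chosen after seeing the data, and they changed neither count of regions. Depth with ZAK-alpha-RBR was lowest in the catalytic strand, with a mean of 522 reads, and next lowest in the L1 stalk base with ES30, with 657.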
